A study of Drosophila melanogaster with 14 samples.

Results

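The RNAs described here are the long non-coding RNAs (lncRNAs) that gave at least 600 raw reads over 6 RNA-seq libraries of Drosophila melanogaster wing discs. Members were chosen by their read totals, as the rows whose FlyBase symbol begins with the prefix lncRNA and whose raw counts, summed over all 6 libraries, reached 600. The dosage compensation RNAs roX1 and roX2 were left out. This rule gave 79 members out of 1909 lncRNA rows, of which 1093 had at least 1 read, in a table of 17807 genes. Together the members held 97.7% of lncRNA reads, those of roX1 and roX2 not counted. Since the rule used total reads over both genotypes, levels are described and not tested, while the difference between genotypes was not part of the choice.

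The wing imaginal disc is the larval epithelium that gives rise to the adult wing and notum. Discs were dissected from wandering larvae of the 3rd instar reared at 25 degrees. Wildtype discs (3 libraries) had the genotype yw and mutant discs, called nub1 here (3 libraries), had the genotype yw;nub[1], an allele of nubbin, a POU domain transcription factor gene of the wing; yw is thus shared by both. The labels give no backcross of the nub[1] line to yw, so differences between the lines and effects of the allele cannot be told apart. The libraries held 58434785 to 82407049 reads in wildtype and 72134981 to 83448836 reads in nub1. Whether the replicates were separate dissections is not labelled. Replicates of a group differed beyond sampling noise, with chi-square over degrees of freedom of 4.09 to 31.7. A p-value covers the variation among these 6 libraries, and how much of it lies between dissections is not known. The labels give total RNA and no poly(A) selection or ribosomal RNA depletion step, which bears on lncRNAs that lack a poly(A) tail.

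A lncRNA is a long transcript with no evident open reading frame. Some act where they are made, on the chromatin of neighbouring genes; some collect proteins in nuclear bodies, as Hsromega does; and some are processed, so that a microRNA or snoRNA cut from them carries the function. For most members only a CR number is known, and no role is given for these. In discs, which mix epithelium with small numbers of other cells, fewer cells of a type and less RNA per cell cannot be told apart.

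The genotype was visible in the targeted region. Counts of nub were 343, 323 and 321 CPM (reads scaled to library size) in wildtype replicates 1, 2 and 3 and 13.1, 12.2 and 7.38 CPM in nub1 replicates 1, 2 and 3. Its paralog pdm2 gave 11460 reads over the wildtype and 25 over the nub1 libraries. All 11 wing disc epithelium markers were expressed, with summed levels of 4432 to 4629 CPM in wildtype and 4405 to 4703 CPM in nub1. Of these, zfh2 (log2 fold change 0.62) and caup (0.28) were higher, and vg (-0.27), wg (-0.42), Dll (-0.92) and nub itself were lower. Testis markers, of interest because many fly lncRNAs are made in the testis, summed to at most 0.573 CPM in any library, and 1 of the 5 had no read. The libraries were not alike in roX1, a male-specific RNA of the dosage compensation complex, with 818, 295 and 263 CPM in wildtype and 471, 500 and 568 CPM in nub1. Wildtype replicate 1 was thus the highest, and the groups overlapped.

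Most members were scarce. Mean levels ran from 1.38 to 2016 CPM with a median of 4.15 CPM, against a median of 30.9 CPM over all 9186 genes tested. In all, 18 members had a mean under 2 CPM, 39 had 2 to 10 CPM, 18 had 10 to 100 CPM and 4 had at least 100 CPM. The members took 0.364 to 0.388% of the reads of a wildtype library and 0.365 to 0.395% of a nub1 library. The 3 members with most reads, CR42862, CR40469 and CR34335, supplied 74.3 to 75.0% of these reads in wildtype and 78.1 to 78.3% in nub1. Annotated spans ran from 214 to 223710 bp with a median of 1364 bp. Just inside the threshold lay CR43857 (601 reads) and CR44917 (604 reads), and just outside it lay CR44764 (585 reads) and CR45233 (550 reads).

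In nub1 discs 21 of the 79 members were higher and 24 were lower, while 34 did not pass the test (edgeR quasi-likelihood test over all genes, adjusted p under 0.05). These are 26.6% and 30.4% of the members. Over all 9186 genes tested, 48.3% were called, 24.4% higher and 23.9% lower, so the members' shares were near those of the transcriptome. The median log2 fold change was -0.09 for the members and -0.0030 for all genes tested. In 54 of 79 members (68.4%) the groups did not overlap, against 60.0% of all genes tested, and these included all 45 called members. Of the called members, 20 differed by less than 1.5-fold, 12 by 1.5-fold to 2-fold and 13 by at least 2-fold.

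**Figure D1:**
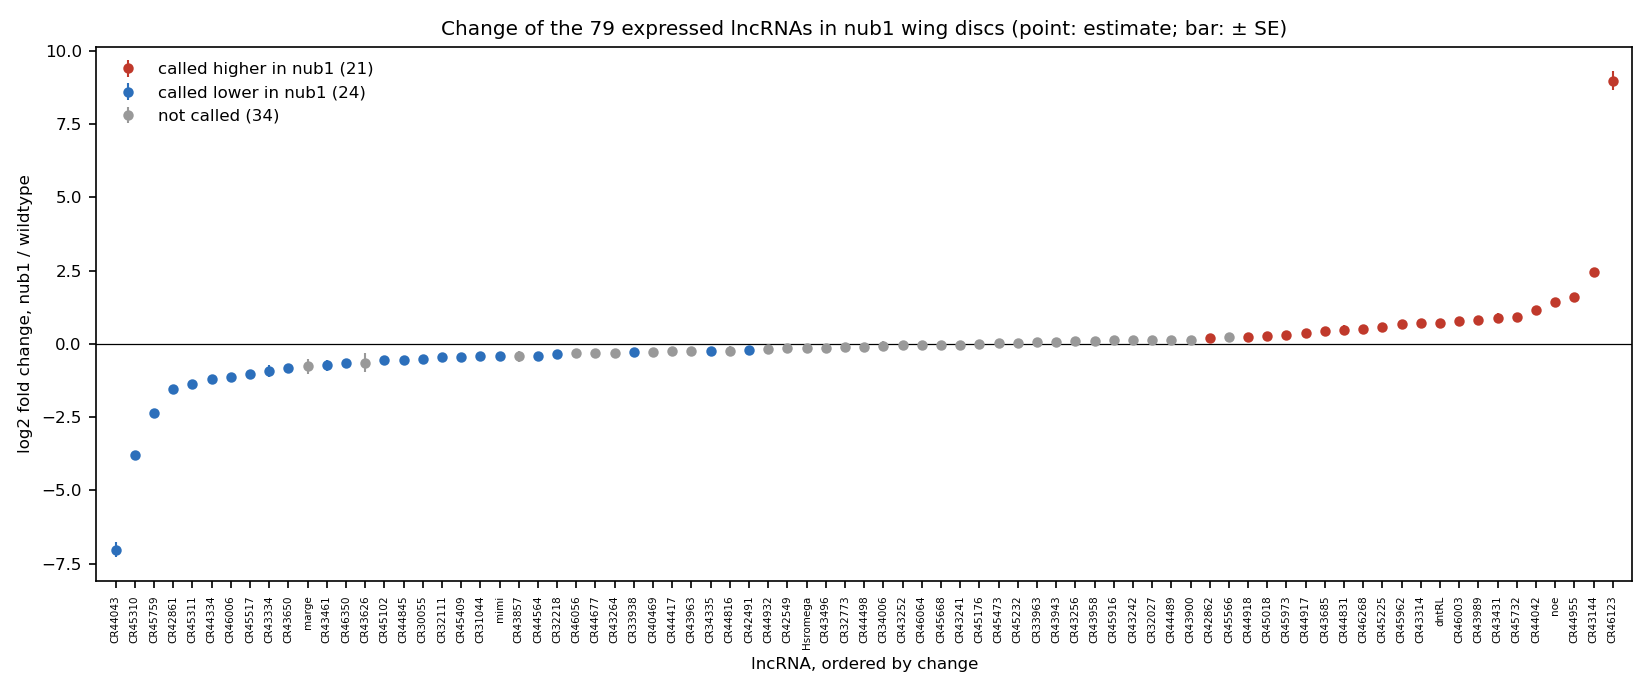
Log2 fold change (nub1 over wildtype, y axis) of each of the 79 lncRNAs, in order of change, as the edgeR estimate with its SE. Most points lie within 1 log2 unit of 0, with CR44043 and CR45310 far below and CR46123 and CR43144 far above.

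Changes of at least 2-fold were called upward in 5 members and downward in 8 (6.33% and 10.1%), against 5.51% and 4.74% of all genes tested. Scarce genes vary more, so the 61 members with fewer than 6000 reads were also read against the 1465 other tested genes with 600 to under 6000 reads, a range set after the data were seen. There 19 members were higher and 16 lower (31.1% and 26.2%), against 30.6% and 24.3% of the other genes, and 5 members rose and 7 fell by at least 2-fold (8.20% and 11.5%), against 11.7% and 7.17%. Their median absolute log2 fold change was 0.42, against 0.28. The 18 members with more reads had 2 rises and 8 falls (11.1% and 44.4%), against 23.6% and 24.7% of the 5909 other genes tested with at least 6000 reads. A total over both genotypes also admits an RNA that is scarce in 1 of them. In 11 members 1 genotype had fewer than 300 reads, and 9 of these were called. With a total of at least 600 reads, that limit itself selects for a difference between genotypes. The share called among these members therefore supports no comparison with other genes. Among the 68 members with at least 300 reads in each genotype, 16 were higher and 20 lower, 7 of them by at least 2-fold.

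**Figure D2:**
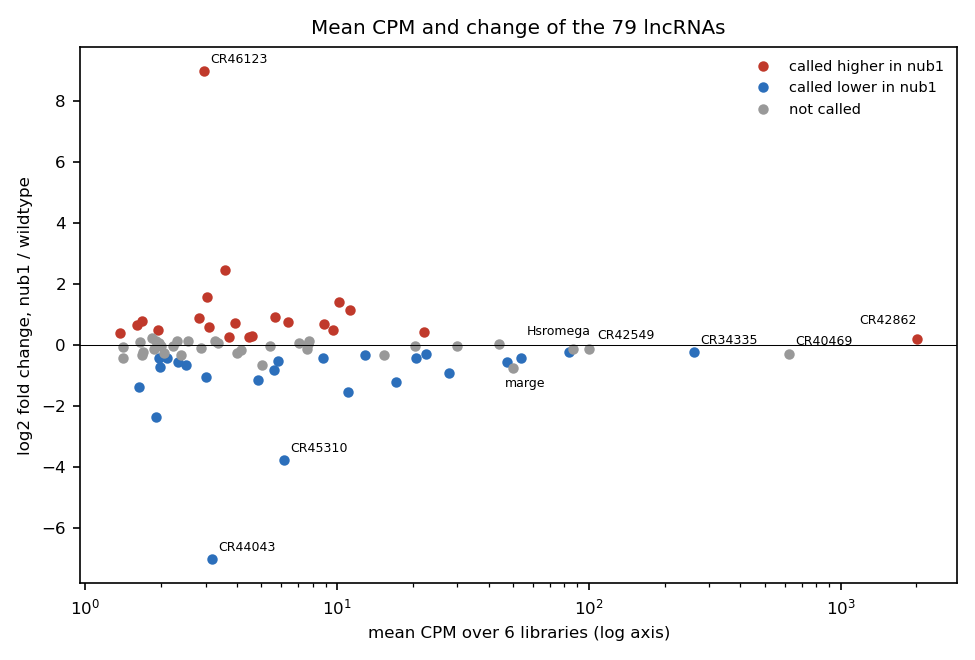
Log2 fold change (y axis) against mean CPM over 6 libraries (x axis, log scale) for the 79 lncRNAs, coloured by call. Changes of at least 2-fold are found only among members with a mean of at most 17.2 CPM, while CR42862, CR40469 and CR34335, to the right, lie close to 0.

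Discs carry trachea, muscle precursors and blood cells, and marker genes of these were read out alongside. Over all genes tested, 24.4% were called higher and 23.9% lower. Tracheal markers (4 of 4 tested) summed to 840 to 891 CPM in wildtype and 1222 to 1283 CPM in nub1, with 2 higher and 1 lower. Most of the tracheal sum was verm (means of 501 and 802 CPM) and serp (265 and 380 CPM), the 2 higher. In contrast, trh was lower (83.8 and 59.6 CPM) and btl was not called. Neuronal markers (3 of 4 tested) summed to 38.5 to 42.0 and 43.2 to 43.7 CPM, with 2 higher and 1 lower, and markers of differentiated muscle (4 of 4 tested) to 37.1 to 51.6 and 50.2 to 64.4 CPM, with 3 higher and 0 lower. Myoblast markers (5 of 5 tested) summed to 221 to 233 and 221 to 256 CPM, with 2 higher and 1 lower. Haemocyte markers (6 of 6 tested) summed to 1091 to 1217 and 959.5 to 1203 CPM, with 3 higher and 1 lower. That sum was mostly Ppn (means of 983 and 723 CPM, not called), whereas vkg (64.5 and 145 CPM), Col4a1 (99.3 and 206 CPM) and NimC1 (0.830 and 3.85 CPM) were the 3 higher. The 1 lower was srp (3.72 and 2.16 CPM), and Hml (19.6 and 33.9 CPM) was not called. The median log2 fold change of the list was 0.92. Fat body markers (4 of 4 tested) summed to 14.9 to 42.9 and 14.3 to 16.7 CPM, with 1 higher and 1 lower, and salivary gland glue genes (3 of 3 tested) to 4.73 to 5.81 and 1.48 to 2.10 CPM, with 0 higher and 3 lower. In the 6 fits that left out a library, the glue gene Sgs3 kept its call in 2 and the neuronal elav in 1. Him (myoblasts) and Fbp1 (fat body) kept theirs in 4 and Mhc (muscle) in 5. The part of such cells, and of the unequal roX1 levels, in the changes of the members was not tested.

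At the extremes, 1 member was nearly absent from wildtype discs and another nearly absent from nub1 discs. CR46123 (FBgn0267798, chromosome arm 3R, 1366234 to 1366601, within the span of the myosin gene Myo81F) had 2 reads over the wildtype and 1377 over the nub1 libraries. Its levels were 0.0162, 0 and 0.0122 CPM in wildtype and 7.02, 5.08 and 5.62 CPM in nub1. Corrected for depth it was 590-fold higher in nub1, with a 95% exact binomial interval of 163-fold to 4874-fold that covers counting error only (adjusted p = 1.1e-07). Myo81F itself, with 0 reads in wildtype and 5 in nub1, was too low to test.

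CR44043 (FBgn0264835, 2R, 1368921 to 1371468, overlapping l(2)41Ab) showed the opposite. It was at 6.20, 7.56 and 5.24 CPM in wildtype and at 0.0552, 0.0521 and 0.0353 CPM in nub1, with 1243 reads against 11. The ratio was 132-fold, with an interval of 73.5-fold to 265-fold (adjusted p = 9.24e-08). CR44042 (FBgn0264834, 2R, 1348167 to 1349167) lies 225 bp outside the span of l(2)41Ab and rose. It was at 7.65, 6.45 and 6.64 CPM in wildtype and 16.1, 15.8 and 14.5 CPM in nub1 (log2 fold change 1.16 ± 0.07 SE; adjusted p = 3.95e-06). The pair thus moved in opposite directions, while l(2)41Ab did not pass the test (0.34 ± 0.14; adjusted p = 0.0782).

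CR45310 (FBgn0266849, 2R, 18226795 to 18228595) and CR45311 (FBgn0266850, 2R, 18227495 to 18231228) overlap each other, and reads of the shared stretch may have been counted for either or for none. CR45310 fell from 10.9, 11.8 and 11.6 CPM to 0.773, 0.990 and 0.741 CPM (log2 fold change -3.78 ± 0.11; adjusted p = 2.76e-08). CR45311 was lower too, at 2.31, 2.34 and 2.41 CPM against 0.980, 0.769 and 0.952 CPM (-1.38 ± 0.13; adjusted p = 5.25e-05). Replicates lay close together in both genotypes, and no library crossed over.

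Further rises of at least 2-fold were found for CR43144, CR44955 and noe. CR43144 (FBgn0262620, 2L, 21657625 to 21658249), which lies 486 bp from the cullin gene Cul2, was at 1.17, 1.10 and 1.05 CPM in wildtype and 6.72, 5.51 and 5.98 CPM in nub1 (2.46 ± 0.11; adjusted p = 4.78e-07). Cul2 rose by far less (0.11 ± 0.03; adjusted p = 0.0181), and that call was lost without nub1 replicate 1 (adjusted p = 0.0648). CR44955 (FBgn0266260, 3R, 10462387 to 10464978) went from 1.46, 1.49 and 1.60 CPM to 4.15, 5.02 and 4.51 CPM (1.58 ± 0.11; adjusted p = 6.42e-06). Its nearest coding gene, the cytochrome P450 gene Cyp12e1, lies 25683 bp away and went from a mean of 0.250 to 0.472 CPM (0.91 ± 0.28; adjusted p = 0.0267), a call that 4 of the 6 single-library omissions removed (wildtype replicates 1 and 2, nub1 replicates 2 and 3; adjusted p = 0.0654 to 0.0876).

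The lncRNA noe (FBgn0026197, 3L, 17400272 to 17401348), first described as a transcript of the nervous system, was among the most even of the changed members. Levels were 5.80, 5.33 and 5.50 CPM in wildtype and 14.8, 14.96 and 14.9 CPM in nub1, a rise of 2.68-fold (1.42 ± 0.05; adjusted p = 1.49e-07). It lies within the span of blot, a transporter gene, which fell (-0.26 ± 0.03; adjusted p = 0.000134). Of the neuronal markers, elav, which makes up nearly all of their sum, had means of 39.1 and 42.1 CPM, a call kept in only 1 of the 6 fits that left out a library. Syt1 was higher (1.08 on the log2 scale) and brp lower (-1.49), and the part of neurons in the rise of noe was not tested.

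**Figure D3:**
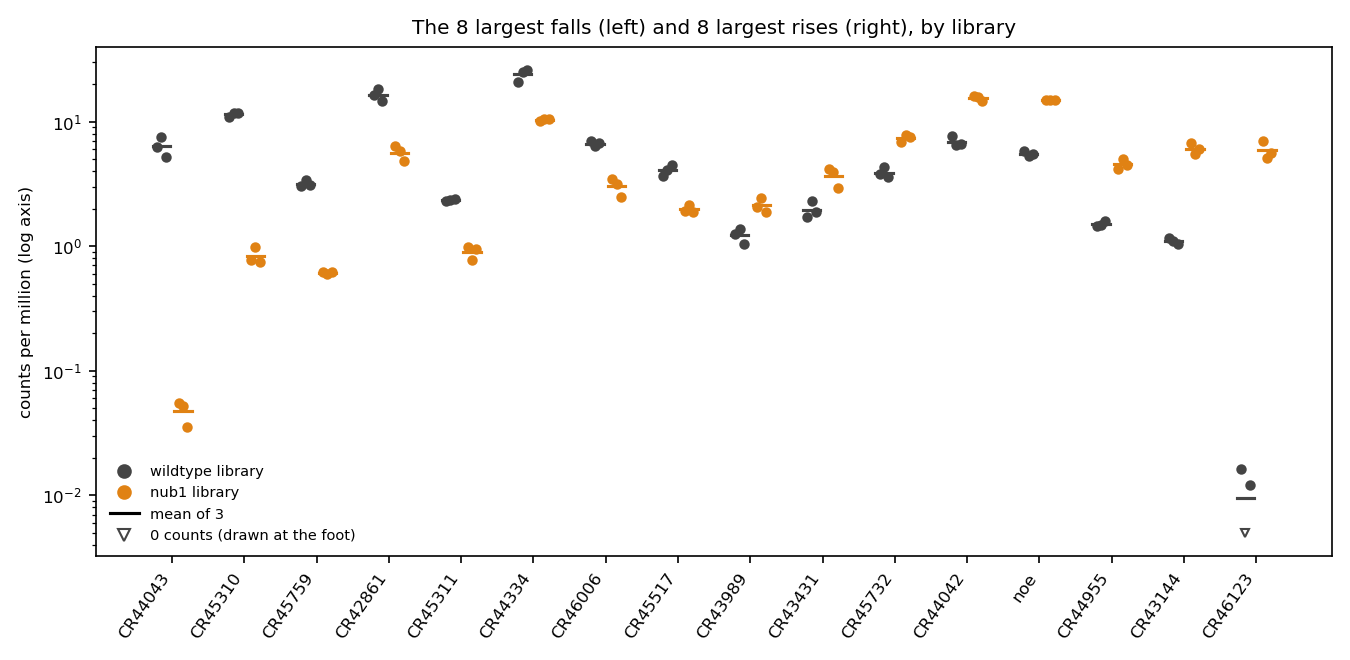
CPM (y axis, log scale) in each library for the 8 lncRNAs with the largest falls and the 8 with the largest rises among those called, without overlap between groups and with at least 1 CPM in the higher group. Dots are libraries, bars are means of 3 and an open triangle marks 0 reads; in every one of these 16 the wildtype and nub1 dots are apart.

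Several members lie nearest to transcription factor genes that pattern the disc, some of them many kilobases away. These were picked out after their values were seen. CR45759 (FBgn0267323, 3L, 6786660 to 6787105) lies 3053 bp from vvl, a POU domain gene that acts in wing veins and trachea. It was at 3.05, 3.39 and 3.10 CPM in wildtype and 0.621, 0.599 and 0.623 CPM in nub1, a fall of 5.18-fold (-2.37 ± 0.12; adjusted p = 1.0e-06). The fall of vvl was smaller (-0.49 ± 0.03; adjusted p = 3.47e-06). CR44334 (FBgn0265422, 3R, 7312338 to 7312858) lies 2709 bp from rn, a zinc finger gene of the wing whose tagged protein was profiled in the same series. Its levels were 21.0, 25.1 and 25.9 CPM against 10.2, 10.5 and 10.5 CPM (-1.21 ± 0.08; adjusted p = 5.09e-06), and those of rn fell by 0.37 ± 0.04 on the log2 scale (adjusted p = 5.08e-05).

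The Iroquois gene caup, a homeobox gene of the notum and of veins, was the nearest coding gene of 2 members that moved apart. CR32111 lies 6136 bp and CR43431 lies 27109 bp from caup. CR32111 (FBgn0052111, 3L, 12627934 to 12648280) was at 62.2, 61.5 and 62.5 CPM in wildtype and 47.2, 45.2 and 44.9 CPM in nub1 (-0.44 ± 0.03; adjusted p = 5.5e-06). CR43431 (FBgn0263379, 3L, 12648907 to 12653090), farther from caup, rose from 1.70, 2.33 and 1.88 CPM to 4.14, 3.91 and 2.93 CPM (0.89 ± 0.16; adjusted p = 0.00215). For caup the log2 fold change was 0.28 ± 0.03 (adjusted p = 0.000190), so CR32111 went against it and CR43431 with it.

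The overlapping members CR44918 and CR44917 were called higher with small changes. Their nearest coding gene, 27935 bp from CR44918 and 18083 bp from CR44917, was tsh, a zinc finger gene of the hinge and notum. The level of tsh rose (0.20 ± 0.02; adjusted p = 0.000245). CR44918 was at 3.54, 3.13 and 3.54 CPM against 4.10, 4.08 and 3.99 CPM (0.25 ± 0.09; adjusted p = 0.0402), and its call was lost without any single library (adjusted p = 0.0545 to 0.109). CR44917 was at 1.19, 1.21 and 1.18 CPM against 1.67, 1.45 and 1.56 CPM (0.39 ± 0.13; adjusted p = 0.0320). It was called in only 1 of the 6 fits that left out a library, that without nub1 replicate 2, and not in the other 5 (adjusted p = 0.0621 to 0.0930). With all libraries, the DESeq2 Wald test called neither CR44918 (adjusted p = 0.0913) nor CR44917 (adjusted p = 0.101). The pair share part of their span, and so may share reads.

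Other members beside regulators did not pass the test. CR44932, which lies 125 bp from the Hox gene Antp, was at 4.46, 4.28 and 4.37 CPM and at 3.85, 4.16 and 3.76 CPM (-0.16 ± 0.08; adjusted p = 0.133), and CR43252, within the span of Antp, had a log2 fold change of -0.04 ± 0.13 (adjusted p = 0.805). CR32773, whose span of 223710 bp covers bi (the T-box gene optomotor-blind) and 11 other annotated genes, had -0.12 ± 0.12 (adjusted p = 0.468). CR46056, within the span of the cell cycle gene E2f1, had -0.32 ± 0.14 (adjusted p = 0.0802) and was called without wildtype replicate 3 (adjusted p = 0.0229). The neighbours Antp and bi were called higher by 0.11 and 0.17 on the log2 scale. Antp did not pass when wildtype replicate 2, wildtype replicate 3 or nub1 replicate 1 was omitted (adjusted p = 0.0575, 0.0533 and 0.0690).

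Of the members named by the size of change, CR42861 (X, 13744928 to 13745476) lies 101 bp from Pdcd4, a gene for an inhibitor of translation initiation. Levels were 16.3, 18.2 and 14.7 CPM in wildtype and 6.36, 5.77 and 4.81 CPM in nub1 (-1.54 ± 0.12; adjusted p = 3.07e-05), and Pdcd4 fell as well (-0.82 ± 0.03; adjusted p = 1.52e-07). CR45102, picked out after its values were seen, lies 185 bp from Mnt, the gene of a Max partner that opposes Myc. It was at 58.1, 58.9 and 51.6 CPM against 43.2, 39.95 and 31.0 CPM (-0.56 ± 0.14; adjusted p = 0.0223), and Mnt had a log2 fold change of -0.49 ± 0.11 (adjusted p = 0.0165). Without wildtype replicate 1 or 2 the calls of CR45102 (adjusted p = 0.0842 and 0.0669) and Mnt (0.0639 and 0.0549) were lost. CR43989, which overlaps one end of the actin regulator gene IRSp53, rose from 1.25, 1.38 and 1.04 CPM to 2.06, 2.44 and 1.88 CPM (0.80 ± 0.16; adjusted p = 0.00288), next to a rise of IRSp53 of 0.76 ± 0.12 (adjusted p = 0.00514).

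CR45517 and CR45732 changed, while their nearest coding genes were not called. CR45517 (X, 5428483 to 5429256) was at 3.64, 4.07 and 4.48 CPM in wildtype and 1.93, 2.14 and 1.88 CPM in nub1 (-1.04 ± 0.11; adjusted p = 0.000106), and CG16756, 266 bp away, was too low to test. CR45732 (3L, 19439927 to 19441195) was at 3.82, 4.30 and 3.57 CPM against 6.91, 7.80 and 7.50 CPM (0.93 ± 0.09; adjusted p = 5.1e-05), with CG33062, 524 bp away, at 0.11 ± 0.07 (adjusted p = 0.237).

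Position relative to coding genes was then described over all members. In 37 members the span overlapped a protein-coding gene, in 24 the nearest one lay within 1 kb and in 18 it lay farther away. The coding gene was tested for 61 members. Among the 31 overlapping pairs tested, 8 had both partners called, 4 in the same and 4 in opposite directions, and the log2 fold changes had a Pearson r of -0.09 and a Spearman rho of 0.04. The 21 pairs within 1 kb had 3 with both called, all 3 in the same direction (r = 0.39, rho = 0.58). Leaving out 1 library removed a call from the pair of CR45102 and Mnt and, through Cul2, from that of CR43144. It also removed the calls of CR34335, CR42491 and CR45018 among the overlapping pairs. Of the 9 pairs farther apart, 8 had both called, 7 in the same direction (r = 0.91, rho = 0.87); caup and tsh each enter 2 of these pairs. Only 9 of the 18 members in this class had a tested partner, and in 4 of the 8 pairs a call was lost when 1 library was left out (those of CR43334, CR44918, CR44917 and CR44955, the last through Cyp12e1). These values describe genes measured in the same 6 libraries, which are not independent replicates, and the strand of the annotated genes was not used.

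**Figure D4:**
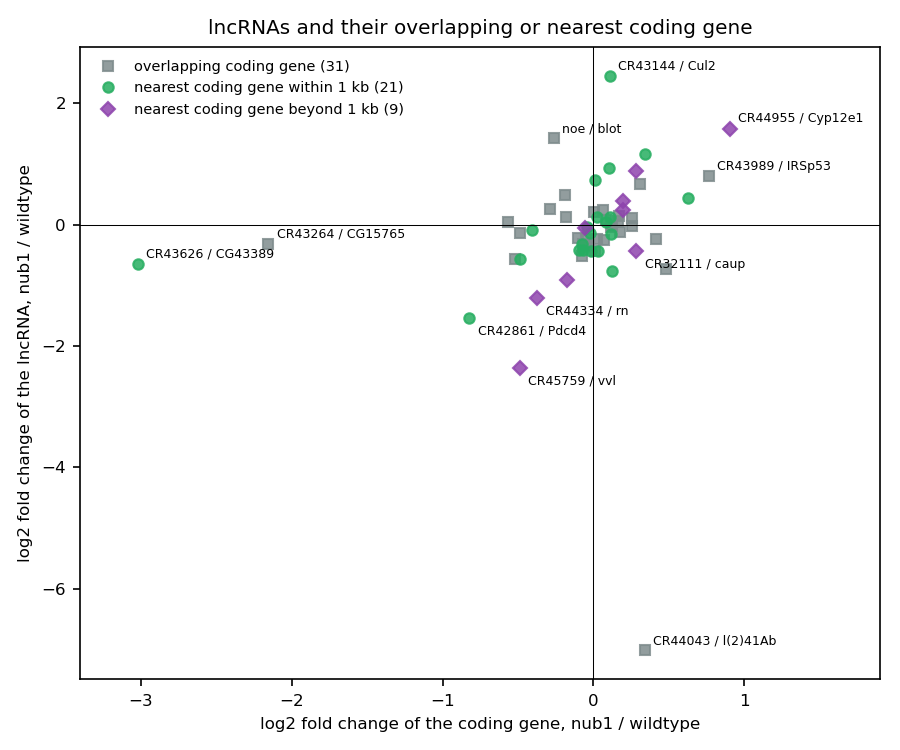
Log2 fold change of each lncRNA (y axis) against that of the coding gene it overlaps or lies nearest to (x axis), for the 61 pairs tested. Pairs beyond 1 kb (diamonds) fall near a rising line, whereas overlapping pairs (squares) scatter about 0 and include CR44043, far below an l(2)41Ab that did not pass the test.

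In 9 members, Hsromega among them, the annotated span holds a microRNA gene, and these members were grouped after the values were seen. The reads measure the host transcript, not the mature microRNA. Of these 9, 1 was called higher and 4 lower, with a median log2 fold change of -0.43, against -0.0030 for all genes tested. With 48.3% of all genes tested called (24.4% higher, 23.9% lower), 5 called of 9 was near the background. CR43334 (3L, 628435 to 643900) holds bantam, a microRNA that promotes growth and blocks cell death in discs. It was at 30.2, 47.8 and 30.8 CPM in wildtype and 18.6, 19.8 and 19.1 CPM in nub1 (-0.92 ± 0.21; adjusted p = 0.0199). Wildtype replicate 2 stood above the others, the groups did not overlap, and the call was lost without nub1 replicate 1, 2 or 3 (adjusted p = 0.0782, 0.0622 and 0.0751). It held without wildtype replicate 1, 2 or 3. Over the 6 fits that left out a library, the log2 fold change ran from -1.02 to -0.67 and the lowest adjusted p was 4.83e-05.

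CR43650 (2R, 16829095 to 16839494) holds mir-8, a microRNA with targets in insulin and Wingless signalling. It fell from 7.61, 7.08 and 6.79 CPM to 4.08, 4.13 and 3.997 CPM (-0.81 ± 0.07; adjusted p = 3.27e-05). CR46006 (3L, 10323501 to 10367450), which holds mir-276a, was at 6.98, 6.35 and 6.69 CPM against 3.44, 3.17 and 2.48 CPM (-1.14 ± 0.12; adjusted p = 7.67e-05). CR31044, with mir-279 and mir-996, was at 22.7, 25.2 and 23.0 CPM against 17.4, 17.9 and 17.3 CPM (-0.43 ± 0.05; adjusted p = 0.000127). In each of these hosts the lowest wildtype library lay above the highest nub1 library, and each call held when any single library was left out. The gene eEF1gamma, 505 bp from CR31044, did not pass the test (adjusted p = 0.680).

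The host that rose was CR43314 (2L, 11952200 to 11971094), which holds bereft (mir-bft), a non-coding gene needed for bristles between the facets of the eye. It was at 7.31, 6.96 and 6.01 CPM in wildtype and 10.8, 11.2 and 10.8 CPM in nub1 (0.70 ± 0.08; adjusted p = 0.000110). CR45916, which holds mir-9a, a microRNA that limits sensory organ precursors in the wing, was at 3.00, 3.24 and 3.13 CPM against 3.57, 3.53 and 3.09 CPM and did not pass the test (0.12 ± 0.10; adjusted p = 0.325). The hosts of mir-282 and mir-275 had spread replicates. CR43626 (mir-282) was at 6.75, 6.91 and 4.69 CPM against 5.68, 2.84 and 3.21 CPM (-0.64 ± 0.32; adjusted p = 0.150) and was called without nub1 replicate 1 (adjusted p = 0.00457). The DESeq2 Wald test also called CR43626 lower (adjusted p = 0.0228), and limma-voom did not call it. CR43857 (mir-275) was at 1.61, 1.80 and 1.45 CPM against 1.21, 1.49 and 0.917 CPM (-0.42 ± 0.19; adjusted p = 0.0937) and was called without nub1 replicate 2 (adjusted p = 0.0403).

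**Figure D5:**
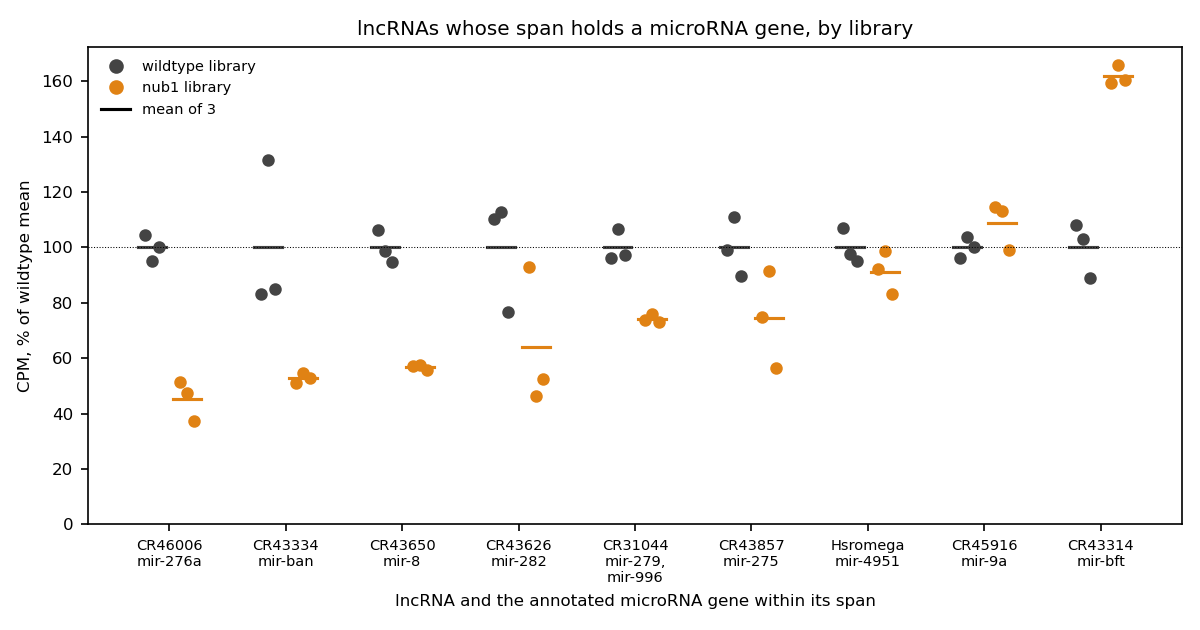
CPM of each library as a percentage of the wildtype mean (y axis) for the 9 lncRNAs whose span holds a microRNA gene, named under each host. Dots are libraries and bars are means of 3; nub1 dots lie below all wildtype dots for the hosts of mir-276a, bantam (mir-ban), mir-8 and mir-279, and above them for the host of bereft.

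A list of other small RNA hosts showed 1 of 7 tested genes higher and 4 lower, with a median log2 fold change of -0.19, beside 24.4% higher and 23.9% lower over all genes tested. It holds the Uhg genes, whose introns yield snoRNAs and which do not carry the lncRNA prefix, and the let-7 complex, which did not reach 600 reads. Uhg3 was at 18.1, 18.3 and 18.8 CPM in wildtype and 10.2, 9.91 and 10.5 CPM in nub1 (-0.85 ± 0.04; adjusted p = 1.12e-06). Uhg1 (-0.19 ± 0.04; adjusted p = 0.00362) and Uhg4 (-0.19 ± 0.05; adjusted p = 0.00768) fell by less, and Uhg5 rose (0.32 ± 0.04; adjusted p = 0.000361). The let-7 complex transcript, host of microRNAs induced by ecdysone, was at 1.72, 2.10 and 1.42 CPM against 0.441, 0.560 and 0.153 CPM (-2.19 ± 0.38; adjusted p = 0.00241), with nub1 replicate 3 the lowest.

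Hsromega (FBgn0001234, 3R, 21296127 to 21317836) is the heat-inducible RNA that organises omega speckles, nuclear stores of RNA-binding proteins. It was at 96.5, 88.3 and 86.0 CPM in wildtype and at 83.1, 89.0 and 75.0 CPM in nub1, and the groups overlapped (-0.13 ± 0.07; adjusted p = 0.168). Related gene lists were read beside all genes tested, of which 24.4% were called higher and 23.9% lower. In the list of heat shock genes, 9 of 13 tested members were higher and 0 lower, with a median log2 fold change of 1.11. Of the 9, 5 are near-identical Hsp70 copies whose reads may be shared. Hsp68 went from 7.70, 8.69 and 7.99 CPM to 206, 211 and 146 CPM and the cochaperone gene DnaJ-1 had a log2 fold change of 1.11 ± 0.05. Of the genes for omega speckle proteins and close relatives, 0 of 7 tested were higher and 2 lower, with a median of -0.04. These were Hrb87F (-0.12 ± 0.03; adjusted p = 0.00718), which binds Hsromega, and nonA (-0.17 ± 0.03; adjusted p = 0.00157). In the list of factors of nuclear RNA processing and decay, 2 of 15 were higher and 0 lower, with a median of -0.0053. The 2 were the Integrator subunit genes IntS4 and IntS11, with log2 fold changes of 0.09 and 0.12. Without wildtype replicate 1 or nub1 replicate 3 neither Integrator gene was called, and IntS4 was not called without wildtype replicate 2 or nub1 replicate 2 either (adjusted p = 0.0530 to 0.134 over these fits). In the bithorax complex, home of the bxd and iab non-coding RNAs, none of which was a member, only Ubx was expressed enough to test (0.05 ± 0.08; adjusted p = 0.644).

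Of the other members with given names, dntRL rose and marge and mimi were lower on average. The RNA dntRL (2R, 4621118 to 4622481) was at 3.31, 2.52 and 3.03 CPM in wildtype and 5.20, 4.85 and 4.68 CPM in nub1 (0.73 ± 0.11; adjusted p = 0.000705), while CG17486, 285 bp away, did not pass the test (adjusted p = 0.784). The levels of marge (3L, 14976626 to 14977631), 586 bp from the Bearded family gene Ocho, were 66.8, 70.6 and 51.8 CPM against 42.7, 42.5 and 26.1 CPM. Replicate 3 was the lowest in both genotypes, and the groups did not overlap, yet the edgeR test was not passed (-0.76 ± 0.25; adjusted p = 0.0657). The DESeq2 Wald test (adjusted p = 0.00700) and limma-voom (adjusted p = 0.0132) both called it lower. Leaving out both libraries numbered 3, a choice made after the data were seen, gave -0.69 with an adjusted p of 1.04e-06. For mimi the values were 2.34, 2.38 and 2.01 CPM against 1.92, 1.62 and 1.46 CPM (-0.43 ± 0.14; adjusted p = 0.0312), and omitting wildtype replicate 1, wildtype replicate 2, nub1 replicate 2 or nub1 replicate 3 removed the call (adjusted p = 0.0874 to 0.101).

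The members with the most reads changed little. CR42862 (3L, 224106 to 230964), which overlaps CG33229, was at 1899, 1867 and 1834 CPM in wildtype and 2237, 2235 and 2022 CPM in nub1. It rose by 1.16-fold (0.21 ± 0.04; adjusted p = 0.00321), and the call held when any single library was left out. Per kilobase of annotated span, CR40469 on the X (122493 to 122706) was the highest in wildtype of the members with most reads, at 3211 CPM per kb, followed by CR34335 at 786 and CR42862 at 272 CPM per kb. Spans include introns, so spliced members are understated on this scale. CR40469 was at 641, 804 and 616 CPM against 579, 571 and 546 CPM and did not pass the test (-0.28 ± 0.11; adjusted p = 0.0835). It was called without wildtype replicate 2 (-0.15; adjusted p = 0.0118), the library that stood highest, and without wildtype replicate 3 (-0.35; adjusted p = 0.0389). With all libraries, limma-voom called CR40469 lower (adjusted p = 0.0412), and the DESeq2 Wald test did not call it.

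CR34335 (X, 3545750 to 3546110), inside the span of the cell adhesion gene DIP-alpha, was at 254, 301 and 297 CPM against 251, 243 and 230 CPM (-0.23 ± 0.07; adjusted p = 0.0288). The gap between the groups was narrow, and omitting wildtype replicate 2, wildtype replicate 3, nub1 replicate 2 or nub1 replicate 3 removed the call (adjusted p = 0.0702 to 0.0891). DIP-alpha went the other way (0.41 ± 0.08; adjusted p = 0.00272). CR42491 (X, 762615 to 763810), which overlaps the ribosomal protein gene RpL22 and holds a snoRNA, was at 81.3, 97.3 and 90.3 CPM against 78.6, 76.1 and 77.0 CPM (-0.22 ± 0.06; adjusted p = 0.0208). Omitting wildtype replicate 3, nub1 replicate 2 or nub1 replicate 3 removed its call (adjusted p = 0.0649, 0.0702 and 0.0563). RpL22 had a log2 fold change of -0.10 ± 0.02. CR42549, within the span of the mura gene, was at 113, 103 and 98.8 CPM against 98.2, 96.4 and 91.0 CPM (-0.14 ± 0.05; adjusted p = 0.0572), and was called without wildtype replicate 3 (adjusted p = 0.0195). The DESeq2 Wald test also called CR42549 lower (adjusted p = 0.0438), and limma-voom did not call it. The level of mura fell by 0.49 ± 0.04 on the log2 scale.

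By chromosome arm, 2 of 18 members on the X were higher and 6 lower, against 20.4% and 22.9% of all genes tested there. On 2L, the arm of nub, 5 of 10 were higher and 1 lower, against 24.6% and 27.1%. The 5 include CR44917 and CR44918, which overlap and kept their calls in 1 and 0 of the 6 fits that left out a library. On 2R there were 2 higher and 5 lower of 12 (27.5% and 24.4%), on 3L 8 and 7 of 22 (24.8% and 23.8%) and on 3R 4 and 5 of 16 (24.3% and 22.3%). The single member on the 4 did not pass the test, against 22.5% and 11.2% there. No member lay within 200 kb of nub or pdm2.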

How the data were processed

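The authors deposited unnormalized read counts for each gene, from directional libraries. Per the submitters' processing notes, bcl2fastq, HISAT2, featureCounts, Bowtie2, deepTools and the build dm6 are named, their roles and versions are not. No source used here gives the strand setting, annotation release or handling of reads that map to several places; counts of overlapping or antisense genes may be shared. The 8 ATAC-seq and ChIP-seq samples were not analysed here.

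Of 17807 IDs, 17710 had a symbol; the 97 others held 0.687% of counts. Positions came from RefSeq Release 6, the assembly of dm6, for 17709 IDs and all 79 members. Genes passing filterByExpr (9186, all members among them) were scaled by TMM and tested with edgeR (glmQLFit robust, glmQLFTest), with a genotype term alone and p-values adjusted by Benjamini-Hochberg over those genes. CPM are TMM-scaled, and an SE is the log2 fold change divided by the square root of F. edgeR 4.0.16 ran in R 4.3.3; DESeq2 1.42.0 and limma 3.58.1 served for alternatives and matplotlib 3.10.9 for figures. The code was tested on simulated counts.

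Members and lists were chosen with earlier results of these data known. Named are members with given names, the 8 largest called changes per direction without overlap and with at least 1 CPM in the higher group, the 6 members with the highest CPM, the 4 most abundant not called, those at the threshold, their coding neighbours and tested list genes. MicroRNA hosts and members beside regulators were added after their values were seen, as were leaving out both libraries numbered 3 and leaving out members with under 300 counts in a genotype. Lists are described by counts and medians. Other alternatives were omitting each library, a replicate block, thresholds, scalings, filters and tests. Chi-square over degrees of freedom between replicates of a group was 4.09 to 31.7, so none agreed within sampling noise.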

Additional observations from a re-analysis of the deposited data

How the results depend on the processing

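The member counts (21 higher, 24 lower) stayed within 1.5 times under every scaling, filter and test tried, at 18 to 21 higher and 22 to 28 lower, and under leaving out 1 library, at 17 to 19 higher and 20 to 25 lower. They were 18 and 22 without both libraries numbered 3. Of the 45 called members, 34 kept the call in all 6 fits that left out 1 library. Counts fell by construction to 5 and 8 members (506 and 435 of all genes) at 2-fold or more, and to 8 and 13 when the 44 members overlapping an annotated gene were left out, where the median log2 fold change was -0.28. At adjusted p under 0.01 there were 16 and 18 members, and 1418 lower genes in all. With 300 reads as the threshold 31 and 32 of 111 lncRNAs were called, and with 1200 reads 17 and 17 of 53. The split over all genes depended on scaling, with 2675 higher and 1815 lower with total counts only and 2469 and 1942 with upper quartile scaling. The median of all genes was 0.029 with total counts, 0.015 with the upper quartile, -0.00052 with DESeq2 size factors, 0.0043 with no filter, 0.0019 with a 1 CPM filter, 0.0014 with a 600-count filter and -0.0053 to 0.0024 when 1 library was left out; the member median then ran from -0.10 to -0.035, the latter without nub1 replicate 3, in which 44 of 79 members had their lowest nub1 level. The cause of these shifts was not tested.

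Same-numbered libraries paired only for number 3, with a correlation of deviations of 0.248, against 0.043 and 0.035 for numbers 1 and 2. With the replicate block 21 members were higher and 27 lower (2451 and 2437 of all genes); marge, CR42549, CR43857 and CR44417 were called and CR34335 was not, and wildtype and nub1 replicate 3 correlated best with their own number, the others not.

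For the 84 genes followed individually, 1221 of 1331 values kept direction and call, 75 lost and 21 gained a call, and 14 changed sign. All sign changes were in genes not called. With total counts aus was at 0.0090 and eEF1gamma at 0.017 (0.0026 with the upper quartile). Over the fits that left out 1 library or both numbered 3, the log2 fold change ran from -0.045 to 0.0058 for aus, from -0.026 to 0.0019 for eEF1gamma, from -0.039 to 0.048 for CG33229, from -0.019 to 0.17 for Shal, from -0.0023 to 0.063 for CG13603, from -0.0096 to 0.064 for CG17486 and from -0.12 to 0.057 for CR43252. The calls of Hrb87F and RpL22 were lost with total counts only. Among members not called the largest SE of a log2 fold change was 0.32 (CR43626). Leaving out members that overlap a gene on the same strand was planned and not run, since the position table used here has no strand.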

Other observations

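Among lncRNAs under 600 reads, 169 were tested, of which 34 were higher and 34 lower. At this depth a gene can pass the filter on low counts through the genotype in which it is higher, so these shares support no comparison with the members. In this set lie the lncRNAs around the targeted genes. Of 10 lncRNAs within 200 kb of nub or pdm2, all on 2L, 3 had enough reads to test, and these were named after their values were seen. The same limit of the filter applies to these 3, so their values are given as a description. In nub1 replicates 1, 2 and 3, CR44970 had 9, 11 and 9 reads and CR44971 had 8, 5 and 6. In the wildtype replicates CR43818 had 6, 9 and 9 reads. CR44970 (12840895 to 12841323) had 103 reads over the wildtype and 29 over the nub1 libraries (log2 fold change -2.06 ± 0.30 SE; adjusted p = 0.000632). CR43818 (12807643 to 12808340) had 24 and 69 reads (1.29 ± 0.32; adjusted p = 0.00915). CR44971, beside CR44970, had 39 and 19 reads (-1.26 ± 0.42; adjusted p = 0.0360), a call removed by omitting wildtype replicate 1, wildtype replicate 2, nub1 replicate 2 or nub1 replicate 3 (adjusted p = 0.0503 to 0.117). CR44596 and CR44595, which lie between 12581445 and 12583550 next to nub and overlap each other, had 21 and 19 reads over the wildtype and 2 and 1 over the nub1 libraries and were too low to test.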
